A study of Homo sapiens with 9 samples.

Results

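Cytochrome c oxidase, complex IV of the respiratory chain, passes electrons from cytochrome c to oxygen in the inner mitochondrial membrane. Its catalytic core is encoded by the mitochondrial genome as MT-CO1, MT-CO2 and MT-CO3, and the core is surrounded by small subunits that are encoded in the nucleus, made in the cytosol and imported. The transcripts described here are those of COX7C and 9 further nuclear-encoded subunits of the complex, COX4I1, COX5A, COX5B, COX6A1, COX6B1, COX6C, COX7A2, COX7B and COX8A. They were taken by gene symbol, and all 10 were found among the 78986 genes of the count table. Several subunits also exist as tissue-restricted isoforms, and those chosen here are the widely expressed ones.

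RNA was sequenced from stable human embryonic kidney cell lines expressing WT p53, G245S p53 or R273H p53, with 3 biological replicates of each. The labels name the line HEK 293 and its culture HEK293T. All lines were made with lentivirus, kept in puromycin and washed and trypsinized before harvest, so every group, the WT p53 control included, carries an overexpressed p53. HEK293T cells also carry the SV40 large T antigen, which binds p53, and the methods describe puromycin selection without a cloning step. The study asked of COX7C, in other assays, whether mutant p53 changes it at the RNA or the protein level. In transiently transfected cells it reported more COX7C protein near R273H p53 than near WT p53, by proximity labeling and a proximity ligation assay. With mutant p53 it reported an unchanged transcript by RT-qPCR and more COX7C protein in global proteomics. The RNA-seq libraries give the transcript levels of the whole complex in the same lines, and hold no measure of protein.

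Libraries used in the fits held between 7325514 and 9667306 counts. WT replicate 3 held 1486315, under the limit of 4096044 counts (0.5 times the median of the other 8), and it was left out of the fits and is shown apart. As a check of the labels, MDM2, the ubiquitin ligase that p53 itself induces, stood at 79.3 and 84.7 CPM (counts divided by library size, scaled by TMM) in the WT libraries fitted, at 44.1 to 47.3 in G245S and at 41.9 to 46.2 in R273H. Of the kidney-line markers reported here, LIN28B, CDH2 and VIM were at 26.7 CPM or more in every library and PAX2 was between 2.18 and 4.87, while the blood marker CD3E had 0 counts in all 9 libraries. The labels call the cells epithelial, and of the 5 epithelial markers listed KRT18 stood at 58.8 to 68.8 CPM and KRT8 at 9.65 to 12.1 in the fitted libraries, while EPCAM did not exceed 3.42, KRT19 1.37 and CDH1 1.41.

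COX7C is a small membrane-spanning subunit of the complex. Its gene lies on chromosome 5 at chr5:86617928-86620962 (GRCh38, plus strand), and its MANE Select transcript has 3 exons and 629 bases, of which 189 are coding and 322 form the 3′ UTR. COX7C stood at 785 and 660 CPM in WT replicates 1 and 2, at 639, 753 and 697 CPM in the 3 G245S libraries and at 671, 722 and 724 CPM in the 3 R273H libraries. The group means were 723 ± 87.9 CPM in WT (SD, n = 2), 696 ± 56.8 in G245S (SD, n = 3) and 706 ± 29.9 in R273H (SD, n = 3). The highest and the lowest WT library enclosed every R273H library and all but 1 G245S library, so the groups overlapped. WT replicate 3, with 943.5 counts on COX7C against 5141 to 6831 in the other libraries, gave 663 CPM, inside the range of the other 8.

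No difference of COX7C between the lines passed the test. The log2 fold change was -0.048 ± 0.111 in G245S against WT (SE, edgeR quasi-likelihood test, Benjamini-Hochberg adjusted p = 0.969) and -0.033 ± 0.104 in R273H against WT (same test, adjusted p = 0.997). Between the mutants, R273H against G245S, it was 0.013 ± 0.0849 (edgeR quasi-likelihood test, adjusted p = 0.996). The 95% intervals ran from 18% lower to 14.2% higher in G245S, from 16.2% lower to 14% higher in R273H, and from 11% lower to 14.4% higher in R273H than in G245S. Changes of COX7C mRNA inside these limits are compatible with these libraries under this fit. With replicate number added to the fit as a block, the limits against WT widened to -0.478 and 0.387 in G245S and to -0.413 and 0.32 in R273H (log2). The limits are not the smallest change that would pass the adjusted threshold, and a larger change could also go uncalled. The sign followed the choice of the WT library: without WT replicate 1 the G245S value was 0.087 and the R273H value 0.099, and without WT replicate 2 they were -0.170 and -0.154.

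None of the other 9 subunits differed past the threshold either. All 10 members passed the filter on low counts in every comparison, and 0 passed the adjusted threshold of 0.05 in G245S against WT, where 0.126% of the 15893 genes tested did. In R273H against WT 0 of 10 passed, beside 0.137% of 16022 genes, and between the mutants 0 of 10 passed, beside 0% of 15614 genes. At an unadjusted p under 0.05 the count of members was again 0 in each comparison by edgeR, while 1058, 979 and 741 of all genes tested lay under it. DESeq2 called 0 of the 10 members in each comparison. The median log2 fold change of the members was 0.015 in G245S and 0.013 in R273H against WT, and 0.011 between the mutants, beside medians of 0.0034, 0.0023 and -0.0048 over all genes tested. Both mutant comparisons share the same 2 WT libraries. In bulk RNA, fewer cells of a kind and less RNA per cell cannot be told apart.

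**Figure D1:**
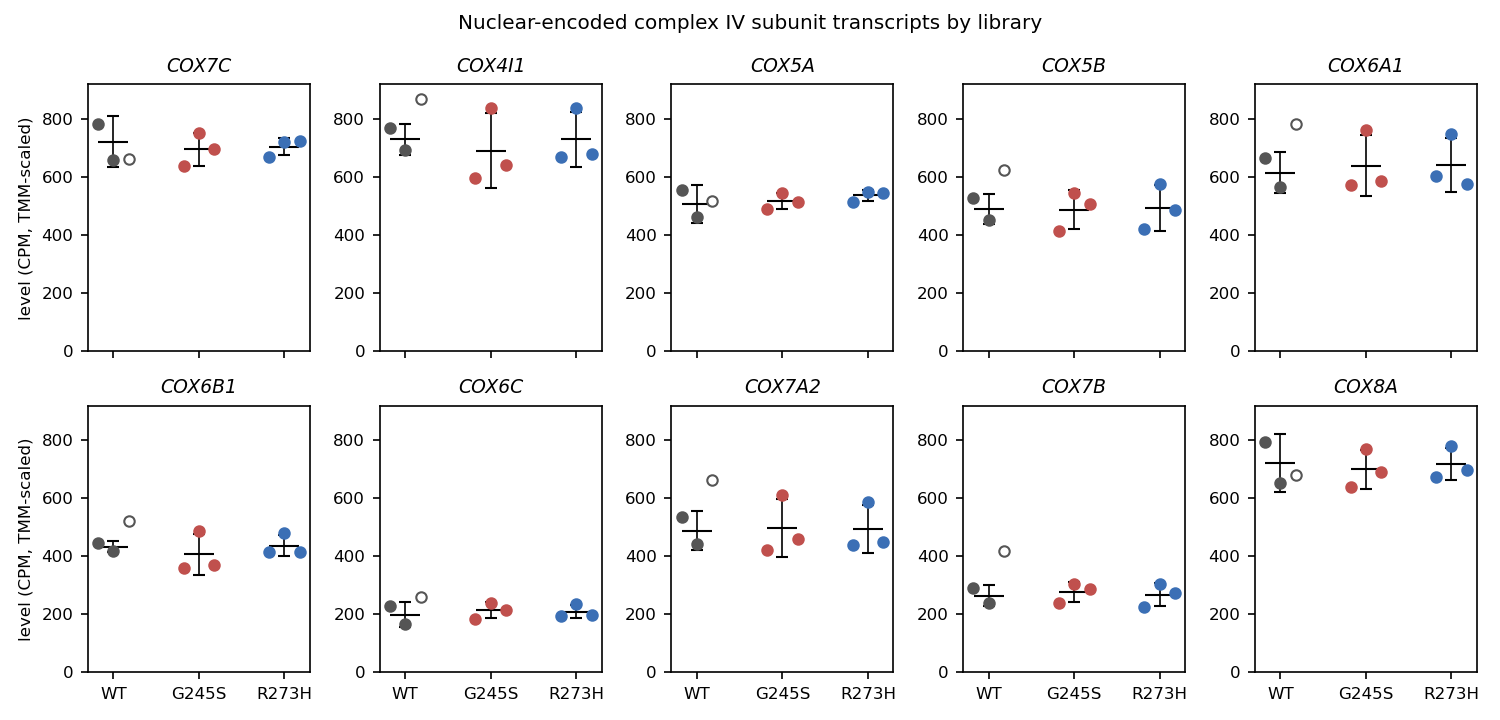
Level of each nuclear-encoded complex IV subunit transcript in CPM (TMM-scaled, linear axis from 0) in WT, G245S and R273H libraries; filled points are the 8 libraries fitted, the open point is WT replicate 3, and bars give the mean and SD of the filled points. The groups overlap for 10 of 10 genes, and the open point lies above all filled points for 7 of them. The shares of all genes that do either were not counted.

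COX4I1, the main isoform of subunit 4 and a site where adenine nucleotides regulate the enzyme, and COX5A, its partner on the matrix side, join the MT-CO1 core early in assembly. COX4I1 stood at 769 and 692 CPM in WT, at 596, 840 and 641 in G245S and at 671, 839 and 681 in R273H. The highest libraries of both mutants lay above both WT libraries and the other mutant libraries lay below both, which left a within-line spread wider than any difference of means. Its log2 fold changes were -0.072 ± 0.133 in G245S and 0.001 ± 0.114 in R273H (SE). COX5A was the steadiest of the 10, at 555 and 463 CPM in WT, 491, 546 and 514 in G245S and 515, 549 and 547 in R273H. Its WT libraries were the highest and the lowest of the 8, and its log2 fold changes were 0.029 ± 0.106 in G245S and 0.080 ± 0.102 in R273H, the largest positive value of a member in that line.

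COX5B, which binds zinc on the matrix side, had means of 491 ± 52.0 CPM in WT (n = 2), 489 ± 66.3 in G245S (n = 3) and 494 ± 78.5 in R273H (n = 3), SD throughout. COX6B1, which faces the intermembrane space near the site where cytochrome c docks, had the lowest fold change of a member in G245S, at -0.084 ± 0.124 on the log2 scale. Its levels were 447 and 420 CPM in WT, 361, 489 and 371 in G245S and 416, 480 and 416 in R273H. Both WT values lay between the lowest and the highest G245S value. G245S replicate 2 weighed most on COX6B1: without it the log2 fold change was -0.233 in G245S against WT (edgeR quasi-likelihood test, unadjusted p = 0.0361, adjusted p = 0.492) and 0.246 between the mutants (same test, unadjusted p = 0.0171, adjusted p = 0.463).

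COX6A1, the widely expressed isoform of subunit 6A, stood at 666 and 565 CPM in WT, 572, 763 and 587 in G245S and 605, 749 and 575 in R273H. COX6C, a membrane-spanning subunit, had the highest fold change of a member in G245S, at 0.113 ± 0.132 (log2, SE). Its level was 229 and 168 CPM in WT, 185, 241 and 217 in G245S and 194, 235 and 198 in R273H, so the WT libraries again spanned most of the mutant ones. The 95% interval of COX6C in G245S ran from 11.1% lower to 31.6% higher, the upper end being the highest among the members.

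COX7A2 and COX8A are the widely expressed isoforms of subunits 7A and 8, and COX7B is a further membrane-spanning subunit. COX7A2 varied most among the 8 libraries, with 536 and 442 CPM in WT, 421, 612 and 460 in G245S and 441, 589 and 450 in R273H. COX7B had means of 265 ± 35.5 CPM in WT (n = 2), 277 ± 34.6 in G245S (n = 3) and 268 ± 39.2 in R273H (n = 3), SD throughout. COX8A stood at 793 and 652 CPM in WT, 638, 772 and 691 in G245S and 675, 781 and 698 in R273H, with WT replicate 1 the highest of the 8. Between the mutants, R273H against G245S, the members ran from -0.057 for COX7B to 0.098 for COX6B1 on the log2 scale.

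**Figure D2:**
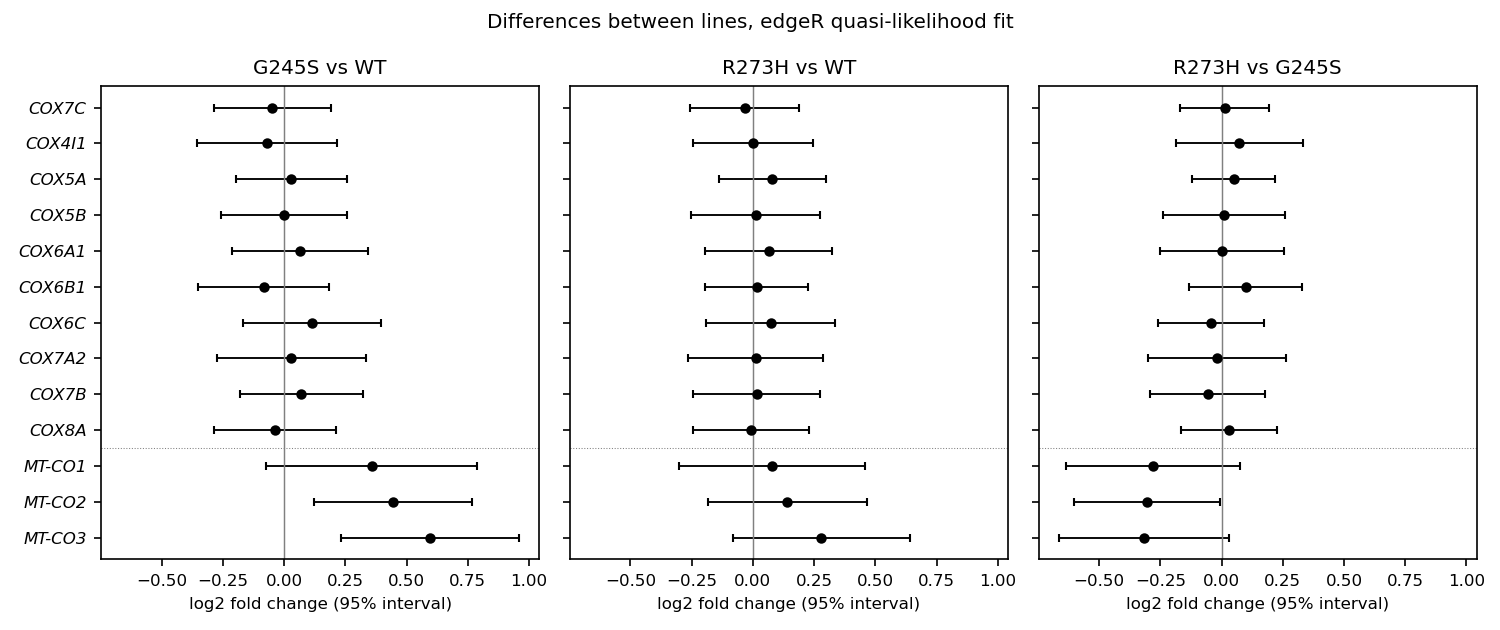
Log2 fold change (point) and its 95% interval (bar) from the edgeR quasi-likelihood fit for the 10 nuclear-encoded and 3 mitochondrially encoded subunits in the 3 comparisons; the dotted line separates the sets. Every interval of the nuclear-encoded genes holds 0, while those of MT-CO2 and MT-CO3 in G245S against WT and of MT-CO2 between the mutants do not, with adjusted p of 0.602, 0.479 and 0.994.

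The levels of the subunits could be ordered by dividing CPM by the length of the MANE Select transcript. COX8A came first with 1442 ± 123.2 CPM per kb (SD, n = 8 libraries), followed by COX6A1 with 1183 ± 151, COX7C with 1123 ± 78.0 and COX7A2 with 1069 ± 161. COX4I1, COX6B1 and COX5B followed with 939, 871 and 712 CPM per kb. From COX8A down to COX5B each gene overlapped its neighbour in the order over the 8 libraries. COX5A (445 ± 28.2), COX6C (280 ± 34.8) and COX7B (111 ± 12.9 CPM per kb) were each separated from the gene above. The value of COX7B rests on a transcript of 2444 bases with a 3′ UTR of 2115 bases, and whether reads cover a transcript evenly is not given in the sources used here. The order depends on the length used. Per kilobase of the union of all annotated exons COX8A and COX6A1 stayed first and second, with COX7C at 4. There COX5A moved from rank 8 to 3, COX7A2 from 4 to 7 and COX4I1 from 5 to 8. By CPM without length COX4I1 ranked 1, COX8A 2, COX7C 3, COX5A 5 and COX6C 10.

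**Figure D3:**
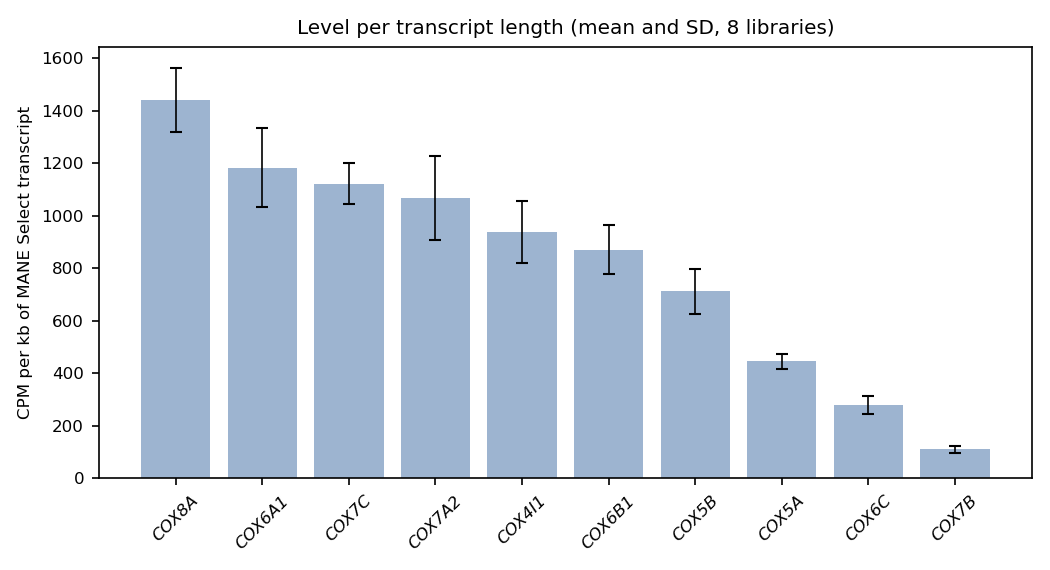
Mean level in CPM per kilobase of MANE Select transcript (bars from 0, linear axis) with SD over the 8 fitted libraries for each nuclear-encoded subunit. COX8A is highest at 1442 and COX7B lowest at 111 CPM per kb.

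While no member differed past the threshold between lines, the subunits moved together between fitted libraries of the same line. All 10 members were above their 8-library mean in WT replicate 1, G245S replicate 2 and R273H replicate 2, and 0 of 10 were above it in WT replicate 2, G245S replicate 1 and R273H replicate 1. In replicate 3 of G245S and of R273H 3 of 10 were above in each, so both mutants followed the replicate number. WT replicates 1 and 2 went the other way, and whether the numbers mark libraries handled together was not tested. The median deviation of the members ran from -0.167 in G245S replicate 1 to 0.195 in G245S replicate 2 (log2), libraries of the same line. The pattern was not tested, the share of all genes that show it was not counted, and the libraries share TMM scaling. The CV over the 8 libraries was 6.94% for COX7C and ran from 6.34% for COX5A to 15.04% for COX7A2. For 7 of the 10 members it lay above 8.59%, the upper quartile among the 1044 genes with a mean of 150 to 1000 CPM.

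**Figure D4:**
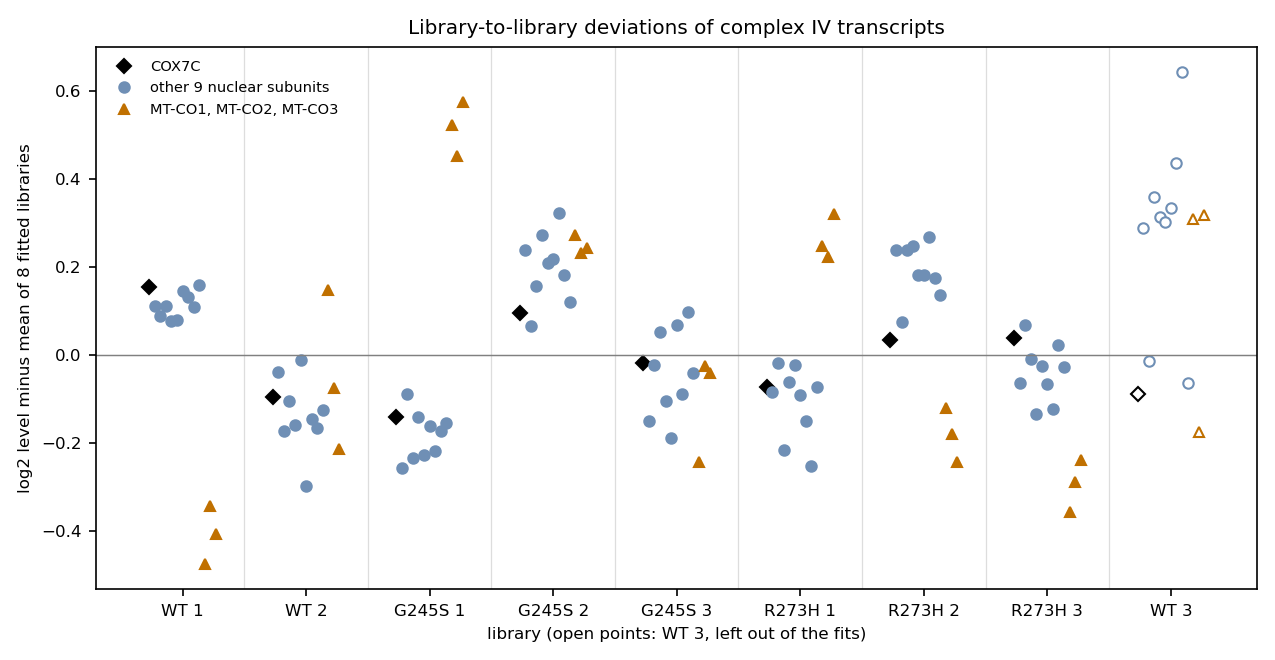
Deviation of each complex IV transcript from its mean over the 8 fitted libraries (log2, vertical axis) in each library (horizontal axis, points offset by gene); diamonds are COX7C, circles the other 9 nuclear-encoded subunits, triangles MT-CO1, MT-CO2 and MT-CO3, and open symbols WT replicate 3. All nuclear-encoded points lie above 0 in WT 1, G245S 2 and R273H 2 and below 0 in WT 2, G245S 1 and R273H 1.

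The promoter stretches of COX7C, of COX8A, the member most like it over the libraries, and of COX6A1, the member least like it, are shown. Whether promoters have a part in the shared shifts between libraries was not tested. Each runs from 250 to 26 bases before the RefSeq start (GRCh38.p14, all on the plus strand, at chr5:86617691-86617915, chr11:63974370-63974594 and chr12:120437863-120438087). Capitals mark the letters TGCGCA (core of NRF1 sites), CCGGAA (ETS factors), CCATNTT (YY1) or GGGCGG (Sp1), searched on both strands.
COX7C: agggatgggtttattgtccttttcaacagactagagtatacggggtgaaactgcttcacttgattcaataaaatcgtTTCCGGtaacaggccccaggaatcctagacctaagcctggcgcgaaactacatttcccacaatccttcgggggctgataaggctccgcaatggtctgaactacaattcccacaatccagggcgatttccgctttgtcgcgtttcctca
COX8A: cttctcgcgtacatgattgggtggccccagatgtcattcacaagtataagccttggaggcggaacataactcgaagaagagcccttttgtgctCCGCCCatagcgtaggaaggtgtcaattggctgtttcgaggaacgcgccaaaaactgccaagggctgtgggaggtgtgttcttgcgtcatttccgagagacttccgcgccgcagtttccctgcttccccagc
COX6A1: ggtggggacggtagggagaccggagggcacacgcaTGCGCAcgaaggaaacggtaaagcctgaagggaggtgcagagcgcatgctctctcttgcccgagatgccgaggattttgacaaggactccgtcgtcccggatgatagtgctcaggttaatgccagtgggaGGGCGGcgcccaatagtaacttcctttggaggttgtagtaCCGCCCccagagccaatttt
Of the members, 9 had a RefSeq promoter in the table used, with 10 promoters among them. The ETS letters were present in 5 of these 10, in those of COX7C, COX4I1, COX5B, COX7B and 1 of the 2 promoters of COX7A2, beside 12.1% of all 35116 promoters of the same length. The Sp1 letters were in 5 of 10, beside 39.5% of all promoters, the NRF1 letters in 2 of 10 (COX5B and COX6A1), beside 5.7%, and the YY1 letters in 0 of 10, beside 10.8%. A match is a description of the letters and not a measured binding site.

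The genes most like COX7C over the 8 libraries were sought among 3813 genes with a mean of at least 50 CPM. PRDX6, a peroxiredoxin, had a Pearson r of 0.98 with COX7C, and CCT5 (a chaperonin subunit), VBP1 (a prefoldin subunit), RPL38 (a ribosomal protein) and TIMMDC1 (a complex I assembly factor) had 0.97 each. PRDX6 ran from 543 CPM in G245S replicate 1 to 652 in WT replicate 1, the libraries where COX7C was also lowest and highest. COX8A ranked 40th with an r of 0.92 and COX5A followed among the members with 0.85, while COX6A1, at 0.66, ranked 875th. These values are descriptions over 8 libraries that share their scaling. With WT replicate 3 added, r with COX7C was 0.92 for COX8A and 0.83 for COX5A. It was 0.22 for COX7B and between 0.37 and 0.48 for the other members.

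The 3 mitochondrially encoded subunits did not follow the nuclear-encoded ones. MT-CO1 carries the heme and copper centre that reduces oxygen, MT-CO2 takes up the electrons from cytochrome c, and MT-CO3 completes the core. MT-CO3 stood at 8178 and 9338 CPM in WT, at 16115, 12819 and 10535 in G245S and at 13522, 9157 and 9185 in R273H. The G245S libraries all lay above both WT libraries fitted, and the R273H libraries lay on both sides of the upper one. The share of all genes that separate as in G245S was not counted. In WT replicate 3 MT-CO3 was 13499 CPM, inside the G245S range. The log2 fold change of MT-CO3 in G245S was 0.595 ± 0.170 (SE, edgeR quasi-likelihood test, unadjusted p = 0.00358, adjusted p = 0.479), and that of MT-CO2 was 0.443 ± 0.150 (same test, adjusted p = 0.602). MT-CO1 had 0.358 ± 0.201 (same test, adjusted p = 0.797). In R273H the values were 0.079 for MT-CO1, 0.141 for MT-CO2 and 0.280 for MT-CO3. Between the mutants, R273H against G245S, they were -0.281 ± 0.167 for MT-CO1, -0.305 ± 0.139 for MT-CO2 (edgeR quasi-likelihood test, unadjusted p = 0.0446, adjusted p = 0.994) and -0.317 ± 0.164 for MT-CO3 (log2, SE), and 0 of the 3 genes passed the threshold in any comparison. The share of all counts that fell on the mitochondrial chromosome was 4.47% and 5.71% in the WT libraries fitted, 8.34%, 6.42% and 5.55% in G245S, 6.86%, 5.25% and 4.83% in R273H and 7.02% in WT replicate 3. Its part in the MT-CO values was not tested.

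The sum of the 3 mitochondrially encoded transcripts was 2.24 times the sum of the 10 nuclear-encoded ones in WT replicate 1 and 5.25 times in G245S replicate 1, the lowest and highest of the 8 fitted libraries. Over these 8 libraries COX7C had a Pearson r of -0.68 with MT-CO1 (exact permutation test over pairings, two-sided, p = 0.0664, adjusted over the 3 relations 0.126) and a Spearman rho of -0.60 (same exact test, p = 0.132, adjusted 0.151). With MT-CO2 r was -0.62 (exact permutation p = 0.103, adjusted 0.126) and rho -0.57 (exact permutation p = 0.151, adjusted 0.151). With MT-CO3 r was -0.59 (exact permutation p = 0.126, adjusted 0.126) and rho -0.64 (exact permutation p = 0.0962, adjusted 0.151). Without WT replicate 1 and G245S replicate 1, the libraries farthest from the median of COX7C, r was -0.20, -0.05 and 0.04 over the 6 others, whose range of COX7C is narrower by that choice. None of the 3 relations passed the adjustment.

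Isoforms and related subunits were mostly too low to test. Of 9 listed, 2 were tested and 0 passed: COX7A2L, which links complex IV into supercomplexes, had a log2 fold change of -0.007 in G245S and 0.021 in R273H, and NDUFA4, a subunit that associates with the complex, had 0.018 and -0.069. The heart and muscle isoform COX6A2 and the hypoxia-linked isoform COX4I2 had 0 counts in all 9 libraries, which allows up to 0.31 to 0.41 CPM (3 counts) in each fitted library and 2.02 in WT replicate 3. Beside them the chosen isoforms COX6A1 and COX4I1 stood at 565 CPM or more in every library.

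All 33 genes of assembly and copper delivery were tested, and 0 passed the threshold in each comparison. SURF1, an assembly factor mutated in Leigh syndrome, had the highest value in both mutants, 0.173 ± 0.139 in G245S and 0.184 ± 0.124 in R273H (log2, SE). COA5, another assembly factor, was lowest in G245S with -0.185 ± 0.131, and TIMM21, which accompanies imported subunits to the complex, was lowest in R273H with -0.249 ± 0.132. SCO2, a copper chaperone of MT-CO2 and a known p53 target, stood at 142 and 114 CPM in WT, 104, 162 and 109 in G245S and 119, 177 and 112 in R273H. Its log2 fold changes were -0.036 ± 0.157 and 0.079 ± 0.157, and its high libraries were those in which the nuclear-encoded subunits were also high.

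Of 12 nuclear regulators of respiratory genes, all were tested and 0 passed the threshold in each comparison. TFAM, which packages mitochondrial DNA and helps to start its transcription, was lowest in both mutants. It stood at 117 and 119 CPM in WT, at 102, 101 and 94.1 in G245S and at 101, 107 and 105 in R273H. Each mutant library lay below both WT libraries fitted, but the share of all genes that separate so was not counted. Its log2 fold change was -0.252 ± 0.0866 in G245S (edgeR quasi-likelihood test, unadjusted p = 0.0114, adjusted p = 0.606) and -0.183 ± 0.0835 in R273H (same test, adjusted p = 0.807). PPRC1, a coactivator related to PGC-1, was highest in both among those at 5 CPM or more, with 0.222 ± 0.0902 in G245S (same test, adjusted p = 0.696) and 0.150 ± 0.0877 in R273H (same test, adjusted p = 0.922).

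The 3′ UTRs were searched for GGCTGG, the DNA letters of the GGCUGG sequence that the study examined in p53-bound RNA. Only the transcript strand was searched, while the study's search of 3′ UTRs used both. The study reads the sequence as a sign of Alu-derived structured RNA rather than as a recognition element. COX7C holds it 0 times in its 322-base 3′ UTR and nowhere in its transcript, and 21.2% of the 783 reference 3′ UTRs of like length (90 to 110% of it) hold it. Only COX5B and COX7B have it in the 3′ UTR among the 10 members, 1 and 5 times. The COX5B match is printed, as the only one in that 3′ UTR, with the 6 letters in capitals (GRCh38, plus strand, chr2:97648189-97648212).
COX5B: cccatagatGGCTGGtcttatttc
Of reference 3′ UTRs of a length like that of COX7B, 59.7% hold the letters, and of those like COX5B 15.1%. COX7B had a log2 fold change of 0.070 ± 0.118 in G245S and 0.015 ± 0.121 in R273H (SE), and COX5B had 0.011 ± 0.124 in R273H. No binding was measured in these libraries. The study reports from CLIP that mutant p53 bound COX7C RNA more, and the letters do not test that.

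Reads that fit several places were shared as fractions, and the subunit genes have many processed pseudogenes. The table names 52 after the 10 members, and 33 of them had 0 counts. COX6A1P2 held the most, with a mean of 531 counts over the fitted libraries, which with the other copies came to 10.1% of the COX6A1 count. For COX7C the pseudogenes together came to 0.483% of its own count, with COX7CP1 at 24.95 counts on average. Counts of COX6A1 and its copy could be split between them, and with pseudogene counts added 0 of the 10 members passed the threshold in any comparison.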

How the data were processed

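The authors filtered reads with fastp 0.24.0, aligned them to GRCh38 with STAR 2.7.11, removed duplicates by molecular identifier and counted strand-specific reads on exons and 3′ UTRs with featureCounts, with multi-mapping reads shared as fractions. The deposited values used here are expected counts without normalization; 9 columns of CPM per sample were not used. Expected counts were rounded, filtered with filterByExpr and scaled by TMM. Lines were compared with the edgeR 4.0.16 quasi-likelihood test (R 4.3.3), with Benjamini-Hochberg adjustment over all genes tested, and intervals used 95% limits. DESeq2 1.42.0 was an alternative. Plots and exact tests used Python 3.11.15, scipy 1.17.1 and matplotlib 3.10.9. The fit was tested on simulated data with planted changes far larger than those of the members, so that test does not bear on differences of their size. The authors also left out 1 WT library, which is not named. Replicates are labelled biological. Floors cover counting error only.

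The exon coordinates of all 10 members matched GENCODE v44. Members and gene lists were chosen with earlier results of these data known. Genes named are the members, listed cell type markers (those given were picked for the label check after their values were seen), the mitochondrially encoded subunits, SCO2, MDM2, the highest and lowest of each list at 5 CPM or more, any list gene past the threshold, the 5 genes most like COX7C and the pseudogene with the most counts; TFAM and PPRC1 come from that rule, and COX4I2, COX6A2 and COX7CP1 were named after their values were seen. A kidney-line marker and a sequence stretch are not reported here.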

Additional observations from a re-analysis of the deposited data

Results flagged for a closer look

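WT replicate 3, the library left out for depth, held signals outside the range of the other 8 libraries. Of the epithelial markers 5 of 5 were highest there: KRT8 at 54.8 CPM against 9.65 to 12.1 in the others, KRT18 at 161 against 58.8 to 68.8, KRT19 at 33.7 against at most 1.37, EPCAM at 14.1 against at most 3.42, and CDH1 at 3.51. The summed epithelial list was 267 CPM there, against 73.4 to 80.3 in the other WT libraries, 73.8 to 77.4 in G245S and 83.2 to 84.6 in R273H. None of the epithelial markers was at 0 in every library.

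In the same library 7 of the 10 members exceeded all 8 others: COX4I1 at 869 CPM (highest of the others 840), COX5B at 626 (576), COX6A1 at 784 (763), COX6B1 at 522 (489), COX6C at 261 (241), COX7A2 at 662 (612) and COX7B at 420 (305). COX7C, COX5A and COX8A did not. The share of all genes that were highest in this library was not counted. These values came from 371 to 1236 counts per gene, and the part of the epithelial marker signal or of the depth in them was not tested.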

How the results depend on the processing

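In the 45 repeats of the 3 comparisons under alternative settings, 0 held a member past the threshold, and the lowest adjusted p of a member was 0.463, with 2, 1 and 2 member values at an unadjusted p under 0.05, each with a library left out. Over them 24, 33 and 24 of 150 member values per comparison (G245S against WT, R273H against WT, R273H against G245S) turned sign, all of them values that did not pass in either setting. With all 3 WT libraries the G245S log2 fold changes became -0.062 for COX6A1, -0.013 for COX6C, -0.127 for COX7A2 and -0.166 for COX7B, and those of R273H became 0.002 for COX7C, -0.086 for COX4I1, -0.111 for COX5B, -0.058 for COX6A1, -0.076 for COX6B1, -0.051 for COX6C, -0.141 for COX7A2, -0.218 for COX7B and 0.016 for COX8A. Without a filter COX5B became 0.007 in G245S, COX4I1 -0.004 in R273H, and COX7C -0.001, COX5B -0.005 and COX6A1 -0.016 between the mutants. With the filter at 5 CPM COX5B was 0.001 in G245S, and with mitochondrial genes left out 0.000. Library-size scaling gave 0.016 for COX8A in R273H and 0.009 for COX7A2 between the mutants, and added pseudogene counts gave -0.003 for COX6A1 there.

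Leaving out each library in turn, where a lone WT library is assumed to vary like the mutant ones, moved the values in G245S between -0.170 and 0.087 for COX7C, -0.231 and 0.021 for COX4I1, -0.099 and 0.171 for COX5A, -0.107 and 0.117 for COX5B, -0.077 and 0.192 for COX6A1, -0.233 and -0.010 for COX6B1, -0.093 and 0.356 for COX6C, -0.143 and 0.180 for COX7A2, -0.063 and 0.219 for COX7B, and -0.176 and 0.115 for COX8A. In R273H the ranges were -0.154 to 0.099 for COX7C, -0.109 to 0.080 for COX4I1, -0.047 to 0.219 for COX5A, -0.113 to 0.125 for COX5B, -0.058 to 0.190 for COX6A1, -0.056 to 0.062 for COX6B1, -0.133 to 0.312 for COX6C, -0.133 to 0.159 for COX7A2, -0.117 to 0.161 for COX7B and -0.145 to 0.142 for COX8A. Between the mutants they were -0.041 to 0.070 for COX7C, -0.041 to 0.231 for COX4I1, 0.017 to 0.088 for COX5A, -0.117 to 0.115 for COX5B, -0.125 to 0.141 for COX6A1, 0.022 to 0.246 for COX6B1, -0.136 to 0.046 for COX6C, -0.167 to 0.154 for COX7A2, -0.158 to 0.053 for COX7B and -0.037 to 0.101 for COX8A.

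The count over all genes, 20, 22 and 0 in the 3 comparisons, became 144, 93 and 125 without a filter. With all 3 WT libraries it was 10 in G245S, and DESeq2 gave 1 between the mutants. Leaving out a library gave 10 to 30 in G245S (13 without WT replicate 2, 10 without G245S replicate 3) and 0 to 3 between the mutants (3 without G245S replicate 2, 1 without R273H replicate 3). Same-numbered libraries had correlations of their deviations between -0.14 and 0.27, the highest between G245S replicate 2 and R273H replicate 2. No reference value was computed for these correlations. The main fits do not pair libraries by number, and whether the numbers mark libraries handled together was not tested. With the replicate block the counts were 76, 47 and 59, members past the threshold stayed at 0, and COX7B was -0.008 and COX8A 0.016 in R273H. COX7C ranked 4 rather than 3 per length with the union of exons, where COX5A rose from 8 to 3, and 3 of the 5 genes most like it were shared when all 9 libraries were used. The causes were not tested.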
